A study of Mus musculus with 8 samples.

Results

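Complexes II to V are the part of the mitochondrial respiratory chain that follows complex I, together with the ATP synthase. Their nuclear-encoded genes were collected by symbol from the deposited expression table: Sdha, Sdhb, Sdhc and Sdhd, Cyc1, Cycs, and every gene whose name begins with Uqcr, Atp5, Cox4, Cox5, Cox6, Cox7 or Cox8. Of 16505 genes in the table, 48 matched, and 46 of these had a mean of at least 0 on the log2 CPM scale (log2 of counts per 1e6 reads, where a difference of 1 is a 2-fold difference). These 46 are described here, among 13797 genes that passed the same filter. The names cover 4 genes of complex II, 10 of complex III with the cytochromes c, 15 of complex IV and 15 of complex V. Atp5s and Atp5sl match by name only and encode no subunit of the ATP synthase. Cox6a2 and the pseudogene Atp5c1-ps fell below the filter, with means of -1.04 and -2.00, and the members just above it were Cox6b2 at 0.50, Cox4i2 at 0.95 and Cox7a1 at 1.44.

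The RNA came from epididymal white adipose tissue, the visceral fat pad beside the epididymis, of C57BL/6 mice. All mice had received a high fat diet for 12 weeks. One group of 4 libraries was wild type (WT 1 to WT 4) and the other group of 4 carried a Mir181 double knockout (DKO 1 to DKO 4). The sources used here give neither the age of the mice nor their housing, and no row of the table measures a mature microRNA, so the deletion itself was not checked.

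Complex II, succinate dehydrogenase, passes electrons from succinate to ubiquinone and is also an enzyme of the citric acid cycle. Complex III moves them from ubiquinol to cytochrome c, complex IV (cytochrome c oxidase) from cytochrome c to oxygen, and the proton gradient that builds up drives complex V, the ATP synthase. Except in complex II, the nuclear subunits are assembled with subunits encoded by mitochondrial DNA. Several complex IV subunits and the c subunit of the ATP synthase are encoded by more than 1 nuclear gene, and some of these copies are used mainly in heart and skeletal muscle, lung or testis. White adipocytes hold fewer mitochondria than brown adipocytes, and PGC-1α (Ppargc1a) is the best known coactivator of the nuclear genes of the respiratory chain.

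All miR-181 microRNAs share a seed, bases 2 to 8, in capitals here. The labels do not say which loci the knockout deletes, and the mature forms encoded by the 2 clusters with copies of both miR-181a and miR-181b are shown because this family sets the genotypes apart (RefSeq, GRCm38.p6).
miR-181a-5p: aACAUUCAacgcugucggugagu
miR-181b-5p: aACAUUCAuugcugucgguggguu
The first is encoded on chromosome 1 at chr1:137966468-137966490 and on chromosome 2 at chr2:38852741-38852763, and the second at chr1:137966650-137966673 and chr2:38853845-38853868, all on the plus strand. A match to this seed (TGAATGT) was present in the annotated 3′ UTR of 3 of 42 members with such a UTR in GENCODE M21, namely Sdha, Cyc1 and Atp5l. The share was 7.14% of the members and 15.6% of 12648 tested genes, and the members' UTRs were shorter, with a median of 180.5 bases against 880.0. A match of letters is a description, and no target site was measured here.

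The libraries differed in ways that touch every result below. They held between 3736881 and 76838584 reads, and ribosomal RNA took 0.0916% to 11.5% of them. It was above 1% in WT 1, WT 3, WT 4 and DKO 1, and below 1% in WT 2 and the other 3 knockout libraries. Transcripts typical of epididymis were above 1% of reads in WT 2, DKO 2 and DKO 4. Adipocyte markers made up 1.58% to 2.48% of reads in WT libraries and 2.66% to 3.78% in knockout libraries, with 8 of 10 called higher, and macrophage markers 0.804% to 0.926% and 0.144% to 0.211%, with 10 of 10 called lower. In a bulk sample fewer cells of a type and less RNA per cell cannot be told apart.

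Members rose in the knockout and none was called lower, with Uqcr11, Cox8a, Sdha, Atp5b and Atp5k at 1.82- to 2.04-fold of their WT level. By limma's test with Benjamini-Hochberg adjustment over all 13797 genes at 0.05, 19 of 46 members rose and 0 fell (26 and 0 at an unadjusted p under 0.05), and 0 fell under any of the 19 alternative settings. Of all tested genes, 22.7% were called higher and 16.1% lower, so that the members' share of higher calls, 41.3%, lay above the background and their share of lower calls below it. The fitted change was above 0 for all 46 members, with a median of 0.57 on the log2 scale. Of all 13797 tested genes 8554 were above 0, with a median of 0.18. Once each library was centred on its median gene, the change was above 0 for 41 members, and Atp5g1, Cox7a2l, Cox7b, Cycs and Uqcrb turned negative. That centring moved the median of all genes to 0.03, the members' median to 0.42 and their calls to 14. The share of all tested genes called higher was then 17.7%. Of all calls 58.6% were higher as deposited, 46.4% with centring, 48.2% with quantile normalization and 44.9% with voom weights and median-ratio size factors. For 15 members every knockout library exceeded every WT library and for 0 the reverse held, where 20.8% and 16.6% of all tested genes did so. The count of calls depended on single libraries: it was 9 without WT 1, WT 4, DKO 3 or DKO 4, 11 without WT 3 and 30 without DKO 1. The share of all tested genes called higher was then 15.5% to 17.7%, 19.0% and 29.5%. With 9 or 11 calls of 46, the members' share was therefore only slightly above the background. Sdha, Uqcr11, Cyc1, Cox8a, Cox6a1, Atp5b, Atp5d, Atp5e and Atp5k kept their call whichever library was left out. The other 10 called members lost it without WT 1, WT 4, DKO 3 or DKO 4, all but Atp5o and Uqcr10 also without WT 3, and Atp5a1 also without WT 2.

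**Figure D1:**
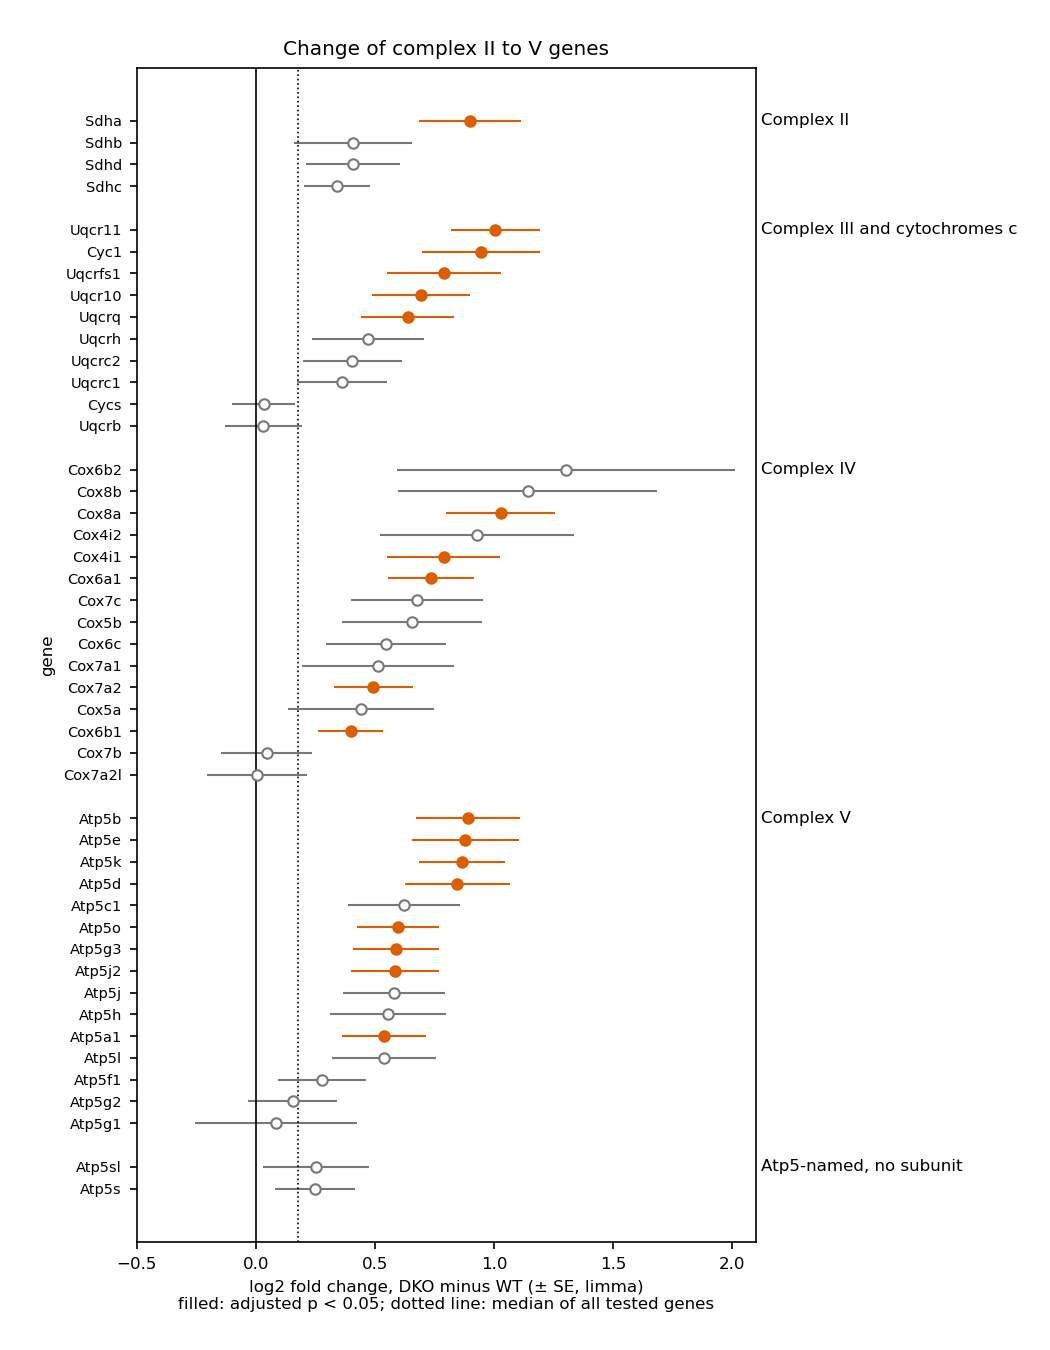
Change of each of the 46 genes, as log2 fold change of the knockout (DKO) minus WT on the horizontal axis with its standard error, grouped by complex. Filled points are the 19 genes with an adjusted p under 0.05, all to the right of 0, and the dotted line is the median of all tested genes, 0.18.

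The rise was uneven across the knockout libraries. The 46 genes in sum gave 0.519% of all reads in WT 1 (95% Wilson interval 0.512 to 0.526), 0.650% in WT 2, 0.597% in WT 3 and 0.562% in WT 4. They gave 0.654% in DKO 1, 0.721% in DKO 2, 1.13% in DKO 3 (1.12 to 1.13) and 1.07% in DKO 4. DKO 3 and DKO 4 therefore stood well above the rest, and DKO 1 lay level with WT 2. These intervals cover counting error only. Relative to each gene's WT mean, the median member was 0.14 higher on the log2 scale in DKO 1 and 0.32 in DKO 2, but 0.91 in DKO 3 and 0.91 in DKO 4. The 4 WT medians ran from -0.17 to 0.19. For all tested genes the medians were -0.017, 0.20, 0.19 and 0.28 in DKO 1 to DKO 4. For 41 of 46 members DKO 3 and DKO 4 were the highest libraries of the 8. The number of members above all WT libraries was 19 in DKO 1, 30 in DKO 2, 41 in DKO 3 and 43 in DKO 4. In both DKO 1 and DKO 2, 16 members were above all WT libraries. These counts, and that of members with DKO 3 and DKO 4 highest, were not made over all tested genes. Among the WT libraries, WT 2 was the highest for 28 members, a count likewise not made over all tested genes. The median of all tested genes relative to the WT mean was also highest in WT 2 among these libraries, at 0.086.

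DKO 3 and DKO 4 were also apart in other respects. Red blood cell markers took 0.172% and 0.548% of their reads and at most 0.0348% elsewhere. Macrophage markers took 0.144% and 0.146%, against 0.211% in DKO 1 and 0.178% in DKO 2. Smooth muscle and pericyte markers set only DKO 4 apart, with 0.293% there, 0.0447% in DKO 3 and at most 0.0569% elsewhere. The part of these differences in the members' levels was not tested. With both libraries left out, an alternative added after the data were seen, 6 of 46 members remained called higher. They were Sdha, Uqcr11, Cyc1, Cox8a, Atp5b and Atp5k. Of all tested genes 12.7% were called higher then, a share close to that of the members. The median change was then 0.22, against 0.11 for all genes. Within the libraries high in ribosomal RNA (DKO 1 against 3 WT) the members' median difference was 0.21, with 35 of 46 above 0. Within the low ones (3 knockout libraries against WT 2) it was 0.52, with 42 of 46 above 0. Over all tested genes the medians were 0.036 and 0.080, with 7288 and 7655 of 13797 above 0. With a term for high or low ribosomal RNA 8 of 46 members were called higher. Of all tested genes 16.3% were called higher with this term, a share close to that of the members. The spread between libraries was larger in the knockout for 44 of 46 members, with a median SD of 0.44 against 0.19 in WT, and for 68.3% of all tested genes.

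**Figure D2:**
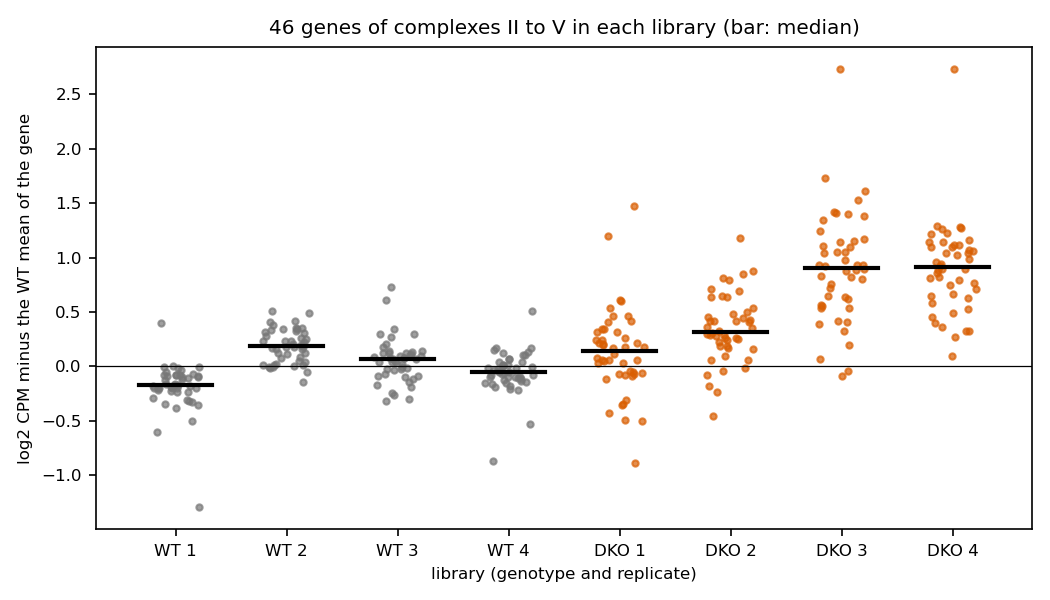
Each point is 1 of the 46 genes in 1 library, as its log2 CPM minus the gene's WT mean, and the bar is the median of the library. The bars stand at 0.14 and 0.32 in DKO 1 and DKO 2 and at 0.91 in both DKO 3 and DKO 4.

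Complexes III, IV and V held several genes that rose, and in complex II the only call was Sdha. The counts called higher were 1 of 4 for complex II, 5 of 10 for complex III, 5 of 15 for complex IV and 8 of 15 for complex V, with median changes of 0.41, 0.56, 0.66 and 0.59. As shares these are 25%, 50%, 33.3% and 53.3%, where 22.7% of all tested genes were called higher, so that the share in complex II was near the background. Without WT 1, WT 4, DKO 3 or DKO 4 the counts were 1, 2, 2 and 4, and without WT 3 they were 1, 3, 2 and 5. Without DKO 1 they were 2, 6, 10 and 12, and without DKO 2 they were 2, 5, 5 and 10. Of all tested genes, 15.5% to 17.7%, 19.0%, 29.5% and 20.2% were called higher in these settings. In DKO 1 the median deviation from the WT mean was 0.12 for complex II, 0.13 for complex III, 0.11 for complex IV and 0.18 for complex V. In DKO 4 these medians were 0.81, 0.86, 0.92 and 0.99. DKO 3 and DKO 4 were above DKO 1 and DKO 2 in each complex. Differences between complexes were not tested.

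In complex II, Sdha rose and its 3 partners did not pass the test. Sdha, the flavoprotein that oxidises succinate, was at 7.94, 7.98, 8.02 and 7.96 log2 CPM in WT 1 to WT 4 and at 8.44, 8.48, 9.38 and 9.20 in DKO 1 to DKO 4. The WT SD was 0.03 (n = 4), the smallest of the 46 members, and every knockout library lay above the WT libraries. The difference was 0.90 ± 0.21 (SE, log2 scale), or 1.87-fold, with a limma adjusted p of 0.0101, and Sdha was called under all 19 alternative settings. Sdhc, a membrane anchor and the member of the complex with the smallest change, was at 6.59, 6.85, 6.74 and 6.89 in WT and at 6.96, 6.83, 7.38 and 7.26 in the knockout. DKO 2 fell inside the WT range, and the difference of 0.34 ± 0.14 had a limma adjusted p of 0.0790. Sdhb, the iron-sulfur subunit, and Sdhd, the other anchor, differed by 0.41 each, with limma adjusted p of 0.217 and 0.129.

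In complex III, Cyc1, Uqcrfs1 and the small subunits Uqcr11, Uqcr10 and Uqcrq rose, and the core proteins did not pass the test. Uqcr11, a small supernumerary subunit, had the smallest p of all 46 members. It was at 5.54, 6.05, 5.71 and 5.64 log2 CPM in WT 1 to WT 4 and at 6.34, 6.55, 7.12 and 6.96 in DKO 1 to DKO 4, with no overlap. The difference was 1.01 ± 0.19 (SE), or 2.01-fold, with a limma adjusted p of 0.00292. Cyc1, the cytochrome c1 that hands electrons to cytochrome c, was at 6.18, 6.48, 6.34 and 6.18 in WT and at 6.61, 6.94, 7.82 and 7.58 in the knockout, a difference of 0.95 ± 0.25 (limma adjusted p 0.0150). Uqcrfs1, the Rieske iron-sulfur protein, rose by 0.79, Uqcr10 by 0.69 and Uqcrq by 0.64. All 5 had every knockout library above every WT library.

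The core proteins Uqcrc1 and Uqcrc2 and the hinge protein Uqcrh did not pass the test, with differences of 0.36, 0.41 and 0.47. For Uqcrc1 and Uqcrc2, DKO 1 and DKO 2 lay near the WT libraries, and without DKO 3 and DKO 4 their differences were 0.03 and 0.01. Uqcrb, another supernumerary subunit, stood at 6.90, 7.01, 7.10 and 6.99 in WT and at 7.06, 6.55, 7.20 and 7.33 in the knockout. DKO 2 was the lowest of the 8 libraries there, and the difference was 0.03 ± 0.16 (limma adjusted p 0.886).

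Cytochrome c itself did not pass the test. Cycs, the mobile carrier between complexes III and IV and also a signal for cell death when released from mitochondria, was at 7.52, 7.96, 8.11 and 7.77 log2 CPM in WT 1 to WT 4. In DKO 1 to DKO 4 it was at 7.89, 7.76, 7.90 and 7.93, entirely inside the WT range. The difference was 0.03 ± 0.13 (limma adjusted p 0.854). Its SD was 0.08 in the knockout and 0.25 in WT, the opposite of the usual order among the members. For Cycs, 26.1% of the 75-base stretches of the transcript also occur in pseudogene transcripts, so its reads may be divided or lost.

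**Figure D3:**
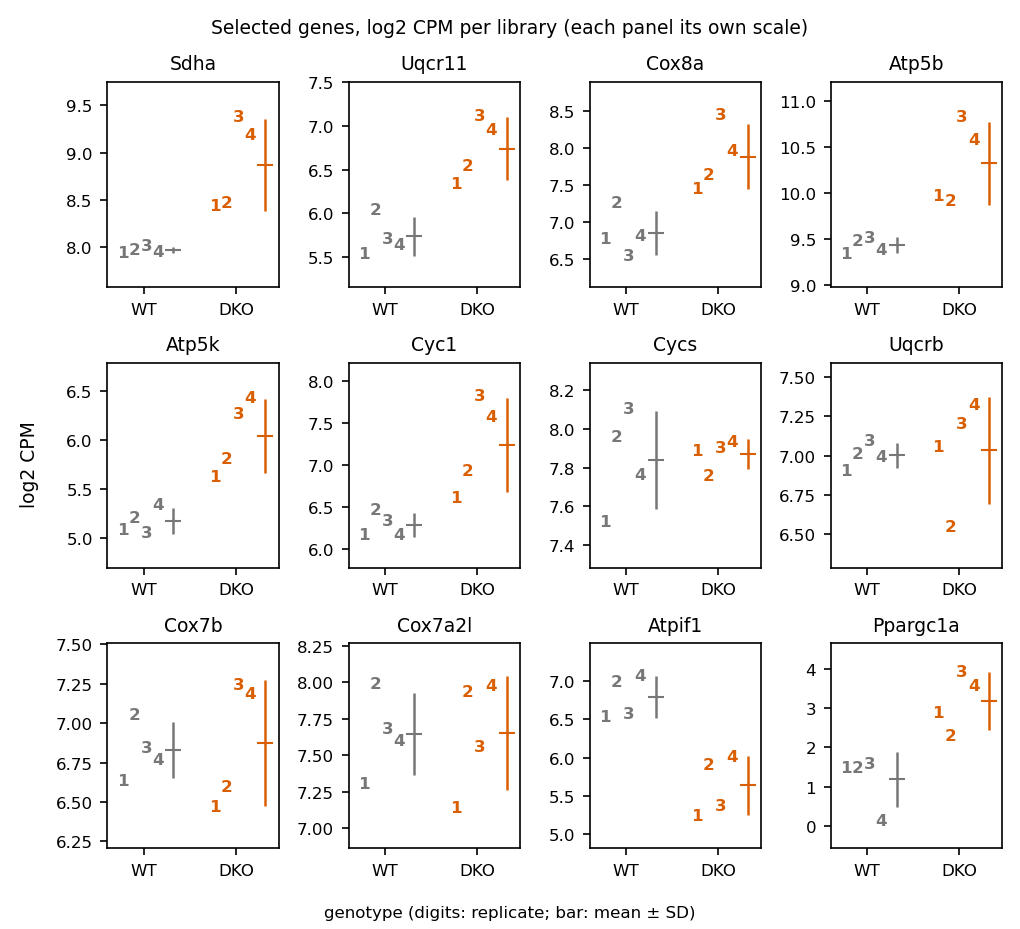
Log2 CPM of 12 genes in each library, with digits for the replicate of each genotype and bars for the mean and SD; each panel has its own vertical scale. Sdha, Uqcr11, Cox8a, Atp5b, Atp5k, Cyc1 and Ppargc1a are higher in all knockout libraries, Atpif1 is lower in all, and Cycs, Uqcrb, Cox7b and Cox7a2l overlap.

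In complex IV, 5 of the 10 genes that are the ubiquitous or the only version of their subunit rose, with a median change of 0.60 over the 10. Cox8a, the ubiquitous form of subunit 8, was at 6.77, 7.27, 6.55 and 6.82 log2 CPM in WT 1 to WT 4 and at 7.45, 7.64, 8.46 and 7.96 in DKO 1 to DKO 4. The groups did not overlap, and the difference was 1.03 ± 0.23 (SE), or 2.04-fold, with a limma adjusted p of 0.00736. Cox4i1, the ubiquitous subunit 4, was at 7.70, 8.23, 7.82 and 7.79 in WT and at 8.0, 8.60, 9.05 and 9.05 in the knockout. DKO 1 lay below WT 2, and the difference of 0.79 ± 0.24 had a limma adjusted p of 0.0281. Cox6a1 rose by 0.74.

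The ubiquitous forms of subunits 7A and 6B had smaller changes. Cox7a2 was at 6.58, 7.003, 6.87 and 6.54 log2 CPM in WT 1 to WT 4 and at 6.96, 7.05, 7.39 and 7.57 in DKO 1 to DKO 4. DKO 1 lay below WT 2, and the difference was 0.49 ± 0.17 (limma adjusted p 0.0419). Cox6b1 was at 6.91, 7.24, 7.06 and 7.09 in WT and at 7.26, 7.26, 7.64 and 7.74 in the knockout, with no overlap, although DKO 1 and DKO 2 lay just above WT 2. It rose by 0.40 ± 0.14 (limma adjusted p 0.0463), a call kept under 6 of 19 alternative settings, and that of Cox7a2 under 8.

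Cox5a and Cox5b, which form the matrix side of the complex, differed by 0.44 and 0.66 without passing the test, and so did Cox6c by 0.55 and Cox7c by 0.68. Cox5a was lowest of all 8 libraries in DKO 1, at 5.43, and highest in DKO 4, at 7.04. Cox7b, a small subunit, was at 6.63, 7.06, 6.85 and 6.77 in WT and at 6.47, 6.60, 7.24 and 7.19 in the knockout. Its 2 lowest and 2 highest libraries were all knockout libraries, and the difference was 0.05 ± 0.19 (limma adjusted p 0.861). Cox7a2l is a relative of Cox7a2 described as a factor for joining complex III to complex IV in supercomplexes. Whether it has this role in the mice used was not examined. Cox7a2l was at 7.31, 7.99, 7.69 and 7.60 in WT and at 7.14, 7.93, 7.56 and 7.98 in the knockout. DKO 1 was the lowest library and the other 3 knockout libraries lay inside the WT range, and the difference was 0.01 ± 0.21 (limma adjusted p 0.985).

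The tissue-specific forms of complex IV were minor in this fat at the RNA level. No change of their ratio to the ubiquitous partner passed a test, but a single pair could not pass it after adjustment. Per kilobase of transcript, Cox4i2, the form known from lung, made up 0.625% ± 0.304 (SD, n = 4) of the 2 subunit 4 genes in WT and 0.752% ± 0.497 in the knockout. Cox7a1, known from heart and muscle and from brown fat, made up 3.31% ± 0.39 and 3.70% ± 1.85 of its pair. Cox8b, of similar tissues, made up 3.81% ± 2.14 and 4.15% ± 2.24 of the subunit 8 genes. Cox6b2, known from testis, made up 0.878% ± 0.409 and 1.93% ± 1.28 of the subunit 6B genes.

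None of the 3 muscle, heart or lung forms passed the test in its own right, nor did Cox6b2. Cox8b was at 0.88, 1.43, 2.21 and 1.40 log2 CPM in WT 1 to WT 4 and at 1.74, 1.91, 4.21 and 2.63 in DKO 1 to DKO 4. The difference of 1.14 ± 0.54 (limma adjusted p 0.124) had DKO 3 as its highest library, and WT 3 lay above DKO 1 and DKO 2. Cox7a1 was at 0.88, 1.36, 1.52 and 0.97 in WT and at 2.38, 1.44, 1.51 and 1.45 in the knockout. Here DKO 1 was the high library, and DKO 3 and DKO 4 lay inside the WT range, unlike most members (difference 0.51 ± 0.32, limma adjusted p 0.226).

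Cox4i2 followed Cox7a1 in having DKO 1 as its highest library. It was at 0.88, 0.34, 1.09 and -0.38 in WT and at 1.96, 1.33, 1.02 and 1.34 in the knockout, a difference of 0.93 ± 0.41 (limma adjusted p 0.0997). Cox6b2 was at -1.44, 0.34, 0.14 and 0.35 in WT and at -0.58, 1.03, 1.58 and 2.58 in the knockout. This was the largest fitted change among the members, 1.30, and also the one with the largest error, 0.71 (limma adjusted p 0.173). Sperm and testis markers were at most 0.0122% of reads in any library.

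**Figure D4:**
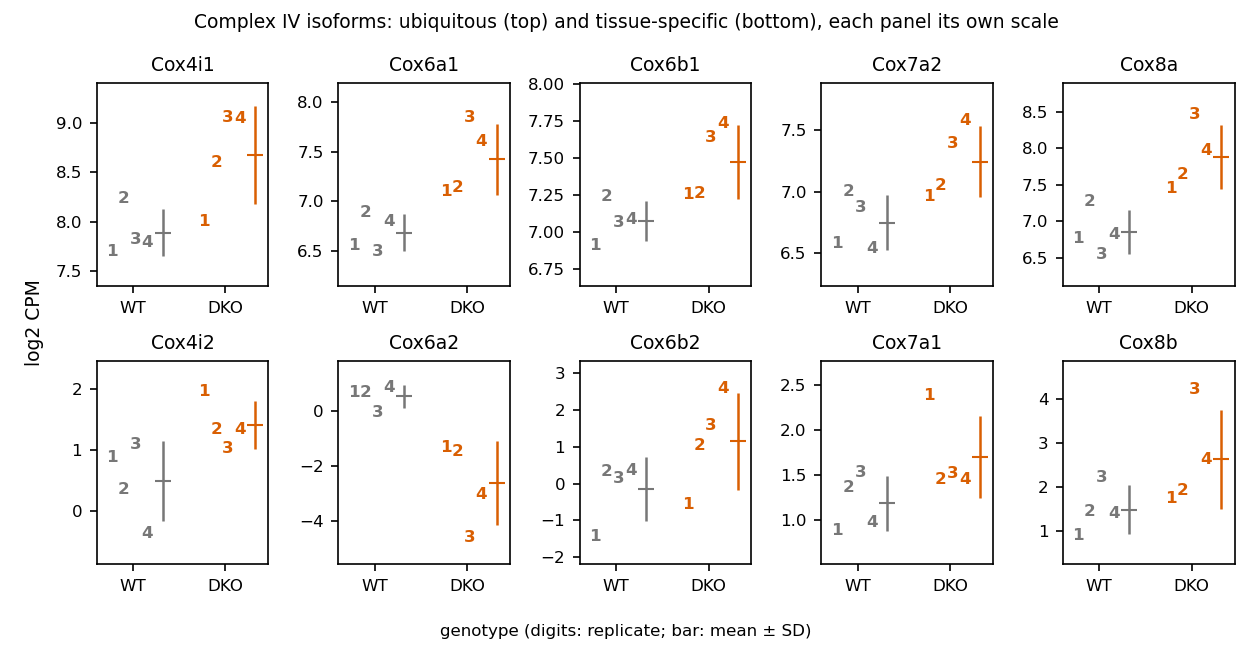
Log2 CPM in each library of 5 ubiquitous complex IV genes (top) and the tissue-specific gene of the same subunit (bottom), with digits for the replicate and bars for the mean and SD; each panel has its own scale. The bottom genes lie between -4.60 and 4.21, the top genes between 6.50 and 9.05, and Cox6a2 is the only gene of the 10 with all knockout libraries below all WT libraries.

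The ratio within a library, which does not depend on library scaling, was compared for 7 pairs by an exact two-sided permutation test. It runs over the 70 ways to divide the libraries and cannot give a p below 0.0286. A pair that alone reaches this exact permutation p has 0.200 after adjustment over the 7 pairs. A single pair therefore could not pass, and its failure to pass says nothing about its ratio. The tissue-specific gene minus its ubiquitous partner changed by 0.14 (log2) for Cox4i2 and Cox4i1, 0.02 for Cox7a1 and Cox7a2, 0.11 for Cox8b and Cox8a, and 0.90 for Cox6b2 and Cox6b1. The exact permutation p-values were 0.857, 0.971, 0.686 and 0.286, and after adjustment over the 7 pairs 0.971, 0.971, 0.960 and 0.5. A p of this size does not show that the ratios were equal. For the Cox8 pair the ratio was -5.89, -5.84, -4.33 and -5.42 in WT and -5.71, -5.73, -4.24 and -5.34 in the knockout, so that the values of both groups ran over the same range.

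Cox6a2, the heart and muscle form of subunit 6A, was below the filter and was not tested. It stood at 0.67, 0.67, -0.06 and 0.84 log2 CPM in WT 1 to WT 4 and at -1.32, -1.48, -4.60 and -3.02 in DKO 1 to DKO 4. All knockout libraries lay below all WT libraries, on 46 reads in the WT libraries together and 31 in the knockout libraries, of which 3 were deeper than any WT library. Its ubiquitous partner Cox6a1 was at 6.56, 6.89, 6.50 and 6.79 in WT and at 7.10, 7.14, 7.84 and 7.61 in the knockout. Skeletal muscle markers differed among themselves. In sum they took 0.00228% to 0.00398% of reads in WT and 0.00582% to 0.0131% in the knockout. Of their 4 tested genes Acta1 and Myl1 were called higher, and the creatine kinase gene Ckm stood out in DKO 4, at 4.63 log2 CPM. Others were lower on average in the knockout without passing the test or the filter. Pvalb differed by -1.67 ± 0.64 (limma adjusted p 0.0665), and Myh2, below the filter, was between -1.44 and -0.38 in WT and between -2.90 and -1.43 in the knockout. Their part in the Cox6a2 values was not tested.

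In complex V, 8 genes rose, 4 of them in the F1 head, which holds the catalytic sites and has 5 genes with a median change of 0.85. The calls in the peripheral stalk (1 of 4), the c ring (1 of 3) and the small membrane subunits (2 of 3) are few, and 25% for the stalk and 33.3% for the ring compare with 22.7% of all tested genes. The median change of the c ring, 0.15, was below that of all genes, 0.18. Atp5b, the catalytic β subunit and the member with the largest rise in the complex, was at 9.34, 9.49, 9.52 and 9.38 log2 CPM in WT 1 to WT 4 and at 9.97, 9.91, 10.84 and 10.58 in DKO 1 to DKO 4. There was no overlap, and the difference was 0.89 ± 0.22 (SE), or 1.86-fold, with a limma adjusted p of 0.0114. The small subunits Atp5e (ε) and Atp5d (δ) rose by 0.88 and 0.85 and Atp5a1 (α), the partner of β in the ring of the head, by 0.54. Atp5c1 (γ), the shaft that turns inside the head, differed by 0.62 with a limma adjusted p of 0.0621. DKO 1 and DKO 2, at 7.98 and 7.97, lay just under WT 3 at 8.01.

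Of the peripheral stalk, which holds the head still, Atp5o (OSCP) rose by 0.60. Atp5j (F6), Atp5h (d) and Atp5f1 (b) differed by 0.58, 0.56 and 0.28 without passing the test. Of the small membrane subunits involved in joining ATP synthases into dimers, Atp5k (e) and Atp5j2 (f) rose and Atp5l (g) did not pass. Atp5k had the smallest p of the complex. It was at 5.08, 5.21, 5.05 and 5.34 in WT and at 5.63, 5.81, 6.27 and 6.44 in the knockout, with no overlap, and differed by 0.86 ± 0.18 (limma adjusted p 0.00537). Atp5s and Atp5sl, which are no subunits, differed by 0.25 each and were not called.

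The c ring, which turns as protons pass, is built from 1 protein encoded by 3 genes with different import sequences, and of these Atp5g3 rose. It was at 7.27, 7.45, 7.19 and 7.24 log2 CPM in WT 1 to WT 4 and at 7.45, 7.64, 8.22 and 8.19 in DKO 1 to DKO 4. It rose by 0.59 ± 0.18 (limma adjusted p 0.0301), every knockout library lying above every WT library, although DKO 1 and WT 2 differed by less than 0.01. Atp5g2 was at 6.42, 6.91, 6.51 and 6.76 in WT and at 6.34, 6.71, 7.06 and 7.11 in the knockout, a difference of 0.15 ± 0.19 (limma adjusted p 0.531). Atp5g1 was at 5.70, 6.55, 5.79 and 6.10 and at 5.15, 6.73, 5.99 and 6.61, a difference of 0.09 ± 0.34 (limma adjusted p 0.856). Atp5g1 ranged most, with both its lowest and its highest library in the knockout.

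Within a library, Atp5g2 minus Atp5g3 was -0.85, -0.54, -0.68 and -0.48 in WT and -1.11, -0.93, -1.16 and -1.08 in the knockout. The groups did not overlap, and the difference of -0.43 had the smallest exact permutation p that the design allows, 0.0286, but 0.200 after adjustment over the 7 pairs. It lay between -0.50 and -0.38 in the alternative settings run for it. Atp5g1 minus Atp5g3 differed by -0.50 (exact permutation p 0.200, adjusted 0.467), and Cox7a2l minus Cox7a2 by -0.49 (exact permutation p 0.0857, adjusted 0.300). Per kilobase, Atp5g2 gave 40.9% ± 1.6 (SD, n = 4) of the RNA of the 3 c genes in WT and 35.9% ± 1.5 in the knockout, Atp5g3 39.3% ± 3.3 and 46.8% ± 4.8, and Atp5g1 19.8% ± 2.5 and 17.3% ± 6.2. All 75-base stretches of the Atp5g2 transcript used here and 59.6% of those of Atp5g1 also occur in transcripts of other genes, mostly pseudogenes, so these counts are uncertain.

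Such shared sequence touched 17 of 46 members. More than 50% of the 75-base stretches were shared for Atp5g1, Atp5g2, Atp5h, Atp5l, Atp5o and Cox7c, and between 25% and 50% for Cycs and Uqcrb. For Atp5o the other records include a second annotated Atp5o gene and Donson. The members called under every alternative setting had little or none: 3.23% for Uqcr11 and 0 for Sdha, Cox8a, Atp5b and Atp5k.

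The upstream sequences of 5 members are shown because they cover the patterns above: Uqcr11, Atp5k and Cox8a rose in every setting, Cycs was flat, and Cox8b is the tissue-specific partner of Cox8a. Each line gives the 150 bases before the annotated start in RefSeq (GRCm38.p6), 5′ to 3′ on the gene's strand, and capitals mark a match to a motif searched.
Uqcr11: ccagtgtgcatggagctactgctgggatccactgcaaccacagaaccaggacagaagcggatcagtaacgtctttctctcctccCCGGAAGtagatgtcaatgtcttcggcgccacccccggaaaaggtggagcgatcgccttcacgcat
Atp5k: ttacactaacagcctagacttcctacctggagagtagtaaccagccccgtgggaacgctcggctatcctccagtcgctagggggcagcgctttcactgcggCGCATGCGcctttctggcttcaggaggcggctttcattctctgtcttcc
Cox8a: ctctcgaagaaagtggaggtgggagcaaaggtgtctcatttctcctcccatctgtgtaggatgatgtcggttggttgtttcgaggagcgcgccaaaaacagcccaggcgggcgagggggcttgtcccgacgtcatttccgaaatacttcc
Cycs: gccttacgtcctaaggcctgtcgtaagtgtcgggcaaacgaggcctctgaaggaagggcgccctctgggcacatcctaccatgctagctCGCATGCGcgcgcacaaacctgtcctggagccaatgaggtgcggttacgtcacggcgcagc
Cox8b: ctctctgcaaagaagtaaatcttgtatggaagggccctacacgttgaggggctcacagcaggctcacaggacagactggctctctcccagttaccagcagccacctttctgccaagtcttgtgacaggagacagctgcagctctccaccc
They lie on the minus strand at chr10:80406822-80406971, chr5:108434400-108434549, chr19:7217617-7217766, chr6:50566570-50566719 and chr7:140900447-140900596. Uqcr11 holds the ETS letters that begin 66 bases before the start, and Atp5k and Cycs hold the NRF1 letters, 49 and 61 bases before it. In Uqcr11 a second match, to NRF1, and in Cox8a one to ETS begin 5 bases before the start and run past it, so they are not in capitals.

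Motifs of 4 factors known for respiratory chain genes were searched on both strands over 250 bases before to 50 after the start, in 37 members with a RefSeq entry. NRF1 (CGCATGCG) was found in 8 members, or 21.6%, and in 1.87% of all 32851 promoter windows and 4.14% of tested genes. ETS factors such as GABP (CCGGAAG) had a match in 12 members, or 32.4%, against 8.86% and 18.9%. YY1 (AANATGGC) had 6, or 16.2%, against 6.05% and 9.47%, and the estrogen-related receptors (TNAAGGTCA) had 2, or 5.41%, against 1.28% and 0.875%. No matches of different motifs overlapped. The NRF1 letters were in front of flat genes (Cycs, Atp5g2) as well as genes that rose (Atp5k, Cox6a1, Uqcr11), and a match is a description, not a bound site.

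Beside the subunits, a list of 55 tested genes for assembly, inhibition and regulation had 16 called higher (29.1%; all tested genes 22.7%) and 1 lower (all tested genes 16.1%), with a median of 0.36. The 16 became 7 without WT 1, WT 4, DKO 3 or DKO 4, where 15.5% to 17.7% of all tested genes were called higher. They became 9 without WT 3, where 19.0% were, so that the list's share lay below the background in each case. The 1 called lower became 2 without DKO 1. Of the regulators, Ppargc1a was at 1.494, 1.497, 1.59 and 0.15 log2 CPM in WT 1 to WT 4 and at 2.88, 2.29, 3.94 and 3.58 in DKO 1 to DKO 4. All knockout libraries lay above all WT libraries, with DKO 3 and DKO 4 highest as for the subunits. It rose by 1.99 ± 0.45 (SE), or 3.97-fold, with a limma adjusted p of 0.00776, but with voom weights and median-ratio scaling the adjusted p was 0.0848, and without DKO 3 and DKO 4 it was 0.0769. Tfam, which packages mitochondrial DNA and starts its transcription, rose by 0.50 (limma adjusted p 0.0480, lost without any library other than DKO 1) and Peo1, the mitochondrial DNA helicase, by 0.98 (0.0132). The transcription factors Nrf1, Gabpa and Esrra differed by 0.10, -0.12 and 0.13, with limma adjusted p of 0.576, 0.465 and 0.610.

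Atpif1 was the only gene of that list called lower, and it went against the subunits of the enzyme it binds. It encodes the inhibitor that stops the ATP synthase from running backwards and consuming ATP. It was at 6.54, 6.99, 6.57 and 7.07 log2 CPM in WT 1 to WT 4 and at 5.24, 5.92, 5.37 and 6.02 in DKO 1 to DKO 4. The groups did not overlap, and DKO 1 and DKO 3 were the lowest libraries. The difference was -1.15 ± 0.21 (SE), with a limma adjusted p of 0.00254, and it was called under all 19 alternative settings, with changes between -1.42 and -1.02. Of the factors that assemble the ATP synthase, Atpaf2 rose by 0.72 (limma adjusted p 0.00416), and it was likewise called under all 19.

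Among the assembly factors of the other complexes, 2 of 4 for complex II, 2 of 6 for complex III and 6 of 24 for complex IV and its copper delivery were called higher. The last share, 25%, was near the 22.7% of all tested genes, and the first 2 rest on few genes. Uqcc1, needed early in complex III assembly, was at 4.88, 4.90, 5.17 and 4.98 in WT and at 5.58, 5.42, 5.76 and 5.85 in the knockout. It rose by 0.67 ± 0.12 (limma adjusted p 0.00297), with every knockout library above every WT library, and was called under all 19 alternative settings. Sdhaf1 and Sdhaf4, which help build succinate dehydrogenase, rose by 0.80 and 0.47, Uqcc3 by 0.57, and Cox17 and Cox19, which take part in copper delivery to complex IV, by 0.52 and 0.55. Cox17 kept its call whichever library was left out. Sdhaf1 lost it without WT 1, WT 3, DKO 3 or DKO 4, Uqcc3 without these or WT 4, Cox19 without WT 4 or DKO 3, and Sdhaf4 without any library other than WT 2.

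The other parts of the chain gave these values. Nuclear Nduf genes of complex I had 23 of 45 called higher, with a median of 0.55, close to the members' 0.57. Genes of the mitochondrial ribosome (Mrpl and Mrps) had 17 of 77 with a median of 0.33, a share of 22.1% that was at the background of 22.7%, while the Nduf share was 51.1%. Of 7 tested mitochondrially encoded respiratory genes 0 were called by limma (2 at an unadjusted p under 0.05). Among these CYTB, the mitochondrial subunit of complex III, differed by 0.62 and COX1, the catalytic subunit of complex IV, by 0.21. For 3 of the 7, CYTB, ND4 and ND5, every knockout library exceeded every WT library, where 20.8% of all tested genes did so. The median change of the 7 was 0.21, against 0.18 for all tested genes. Of 5 tested brown and beige fat markers 2 were called higher and 1 lower, and Ucp1, the uncoupling protein, was below the filter.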

How the data were processed

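Epididymal white adipose tissue RNA from 4 WT and 4 Mir181 double-knockout mice was read by stranded polyA RNA sequencing (75-base single-end reads), per the labels' protocols. Trimmomatic, TopHat2, featureCounts and limma with the mm9 build are named, without versions, per the submitters' processing notes. The deposited values are log2 CPM as voom gives them, the log2 of reads plus 0.5 over the total plus 1, scaled to counts per 1e6 reads. Whole reads could be recovered within 0.01 read for 100% of values, and totals were 3736881 to 76838584 reads.

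The log2 values of genes with a mean of at least 0 were fitted with limma 3.58.1 (R 4.3.3), with a variance trend, the genotype as only term and two-sided Benjamini-Hochberg adjusted p-values over 13797 genes, called under 0.05. In simulated counts for the knockout against WT comparison (13744 genes fitted), 67.0% of 100 genes changed 2-fold and 100% of 100 genes changed 4-fold were called. Every simulated gene had the same dispersion (extra variance between libraries), 0.05, and simulated libraries differed only in depth. The members' median SD was 0.44 in the knockout and 0.19 in WT, so these rates need not hold for them. The replicates carry only numbers: p-values measure the spread between these libraries. Isoform pairs were compared by an exact permutation test of the within-library log2 difference. Transcript lengths, shared 75-base stretches and 3′ UTRs came from the shortest APPRIS principal transcript in GENCODE M21 (GRCm38), promoters and microRNAs from RefSeq (GRCm38.p6). Since the deposited values were made on mm9, no reads were placed on these coordinates.

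Every member was accounted for. Values in every library are given for the genes of each isoform pair and, per complex, for the member with the smallest p, the largest rise and the smallest change; of the pathway list the 2 genes with the smallest p per class and Ppargc1a, Esrra, Nrf1, Gabpa and Tfam are named. Cyc1, Cox6a2, Cycs and other members named with values were chosen after their values were seen. The members and gene lists were chosen with earlier results of these data known. Alternatives changed the pseudocount, filter, scaling, variance trend, replicate block, covariate and libraries used.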

Additional observations from a re-analysis of the deposited data

Results flagged for a closer look

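In 106 groups of 4 libraries examined, 4 held a library far from the other 3, where chance flags about 1 group in 20. Among WT libraries, Cox6b2 was at -1.44 log2 CPM in WT 1 against 0.14 in the nearest, and the difference of Cox6b2 from Cox6b1 was -8.35 there against -6.92. Among knockout libraries, Cox7a1 was at 2.38 log2 CPM in DKO 1 against 1.51 in the nearest, and Atp5s was at 3.08 in DKO 1 against 3.52. WT 1 and DKO 1 were the shallowest libraries of their groups.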

How the results depend on the processing

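Over the 19 alternative settings, Atp5b, Atp5k, Cox8a, Sdha, Uqcr11, Atpif1, Uqcc1 and Atpaf2 kept their call and direction in all, and Atp5d, Atp5e, Cox6a1 and Cyc1 in 18. The labels do not say whether equal replicate numbers pair the samples. Correlations of same-numbered deviations were 0.36, 0.79, 0.24 and -0.36, and those of differently numbered ones ran from -0.78 to 0.57. Since libraries also differed in ribosomal RNA and epididymis reads, these values cannot decide it. With a replicate block 19 members were called higher, 17 of them among those called without it, and 23.4% of all tested genes were. Counts called higher, here members, then complexes III, IV and V, then the pathway list, were 19, 5, 5, 8 and 16. They were 12, 3, 2, 6 and 5 in libraries with under 1% epididymis reads. With the ribosomal RNA class as covariate they were 8, 1, 2, 4 and 6. Without DKO 3 and DKO 4 (added after seeing the data) they were 6, 2, 1, 2 and 2. The share of all tested genes called higher fell as well, from 22.7% to 15.3%, 16.3% and 12.7% in the same order. With median centring complex IV had 3, complex V 5 and the list 9, and without a variance trend complex IV had 3. Leaving out 1 library in turn gave 9 to 30 members, 1 to 2 of complex II, 2 to 6 of III, 2 to 10 of IV, 4 to 12 of V, 7 to 20 of the list higher and 1 to 2 of it lower. Of all tested genes 15.5% to 29.5% were called higher with 1 library left out. The list had 3 lower with median centring, quantile normalization or voom median-ratio weights, and 2 without a trend or with the covariate. Isoform differences reversed with log2(CPM + 1) and quantile normalization: Cox4i2 minus Cox4i1 (-0.16, -0.33), Cox7a1 minus Cox7a2 (-0.087, -0.37) and Cox8b minus Cox8a (-0.066, -0.21, and -0.35 without DKO 3 and DKO 4). Leaving out 1 library they ran from -0.27 to 0.40, -0.30 to 0.21 and -0.22 to 0.46.

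Small changes of uncalled members reversed. With median centring and with voom median-ratio weights, Atp5g1 was -0.057 and -0.064, Cox7a2l -0.14 and -0.18, Cox7b -0.10 and -0.094, Cycs -0.11 and -0.07, and Uqcrb -0.11 and -0.073. With the ribosomal RNA covariate, Atp5g1 was -0.41, Cox7a2l -0.28, Cox7b -0.16, Cycs -0.00038, Atp5g2 -0.086 and Atp5sl -0.0057. Without DKO 3 and DKO 4, Atp5g1 was -0.10, Cox7a2l -0.11, Cox7b -0.29, Cycs -0.013, Uqcrb -0.20, Atp5g2 -0.12, Atp5sl -0.078, Atp5f1 -0.047, Cox5a -0.12 and Sdhb -0.070. Nrf1 was -0.045 with median centring, -0.064 with quantile normalization and -0.0064 with voom median-ratio weights, and Esrra -0.011, -0.076 and -0.16 with centring, the covariate and without DKO 3 and DKO 4. In libraries with under 1% epididymis reads Atp5g1 was -0.29 and Cox7a2l -0.18. Leaving out 1 library, Atp5g1 ran from -0.12 to 0.41, Cox7a2l from -0.11 to 0.18, Cox7b from -0.076 to 0.18, Cycs from -0.072 to 0.12 and Uqcrb from -0.065 to 0.19. The cause was not tested. Of all values of single members under the alternatives, 720 kept direction and side of the threshold, 92 lost a call, 18 gained one and 41 reversed. Depth limits the isoforms near the filter, where 1 read in DKO 1 is 0.268 CPM.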
